A study of Lotus japonicus with 6 samples.

Results

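The transcripts described here are the 100 whose level differed most between replicate libraries of root nodules that overexpressed the transcription factor NAC094 (NAC-OE) in Lotus japonicus. CPM values were the count divided by the sum of that library's counts, times 1000000. Of 46398 transcripts in the deposited table, 11626 had whole-number counts in all 6 libraries, and 4475 of these reached a mean of at least 1 CPM in the control group and at least 10 CPM in NAC-OE. These 4475 are called eligible. They were ranked by the SD of the 3 NAC-OE CPM values divided by their mean, here called the relative spread, and the first 100 were taken, or 2.23% of the eligible transcripts. The members were thus selected on their NAC-OE values, and their spread in NAC-OE is given as a description and was not tested. Their spread in the control group was not used in the choice.

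Nodules in the MG-20 background were sampled 3 weeks after inoculation, with 3 libraries from a line that overexpressed the reporter GUS (GUS-OE, the control) and 3 from a line that overexpressed the NAC gene. The construct's promoter, the number of plants behind each library and whether each group was 1 line or several transformation events are not stated. The series title ties ectopic NAC094 expression to nodule senescence that starts too early. Library totals were between 35531188 and 39513316 counts.

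Root nodules are organs that legumes form to house nitrogen-fixing rhizobia, and their working life ends in senescence, when bacteria and infected cells are broken down and nutrients are recovered. NAC proteins are plant-specific transcription factors, and some members of the family promote leaf senescence. No source used here pairs the table's identifiers with gene names, so members are described by identifier, length, chromosome and level, and marker genes of nodule tissue were not analysed here.

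In NAC-OE nodules the members varied mainly between replicate 2 and replicate 3. Of the 100, 54 were highest in NAC-OE replicate 2 and 42 in NAC-OE replicate 3, and 4 in NAC-OE replicate 1. The corresponding shares of eligible transcripts were 21.9%, 47.9% and 30.2% with plain library sizes. Replicate 1 lay between replicates 2 and 3 for 90 members, compared with 56.8% of the eligible transcripts. For 49 members the order was replicate 2, then 1, then 3, and for 41 it was the reverse. Of the eligible transcripts 16.5% had the first order and 40.4% the reverse. With plain library sizes the reverse order was thus about as common among members as among all eligible transcripts. This likeness depends on the scaling. With TMM scaling 36.2% of the eligible transcripts were highest in replicate 2 and 37.8% in replicate 3. The split of the members stayed at 54 and 42. The shares of the full orders were not counted with that scaling. The median ratio of the highest to the lowest NAC-OE library was 2.59 among members, with a range of 1.9995 to 13.6, and 1.31 among eligible transcripts. The median relative spread was 0.472 for members and 0.142 for eligible transcripts. At the edge of the list the values ran on without a gap: the members ranked 99 and 100 had relative spreads of 0.4015 and 0.4010, and the next pair of transcripts 0.4001 and 0.3995.

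**Figure D1:**
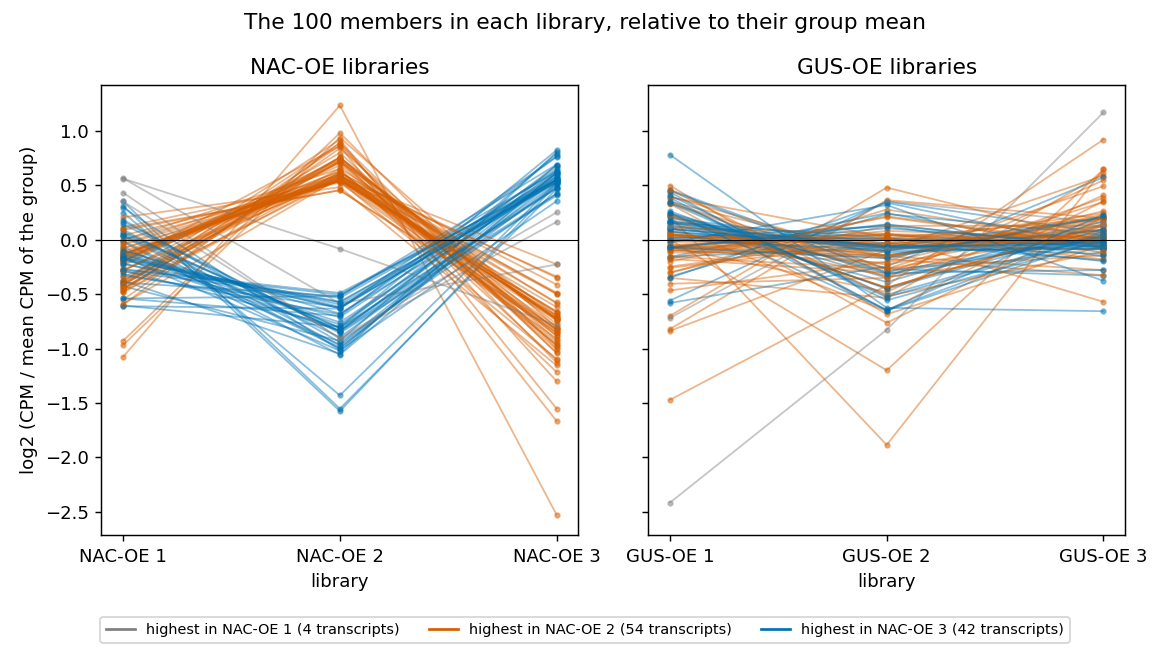
Each line is 1 of the 100 members, drawn as log2 of its CPM over its group mean (y axis) in the 3 NAC-OE libraries (left) and the 3 GUS-OE libraries (right), coloured by the NAC-OE library in which it was highest. In NAC-OE the lines form a set of 54 with its peak in replicate 2 and a set of 42 with its peak in replicate 3, and in GUS-OE the same transcripts lie closer to 0.

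The member of greatest spread was Lj2g3v2701310.1, a transcript of 2066 bases on chromosome 2. Its levels were 183, 908 and 66.9 CPM in NAC-OE replicates 1, 2 and 3, and 21.2, 15.9 and 29.4 CPM in the GUS-OE replicates. NAC-OE replicate 2 held 13.6 times the level of NAC-OE replicate 3, yet each NAC-OE library lay above each GUS-OE library. Lj0g3v0334609.1, of 1634 bases on sequence not placed on a chromosome, had the same order, at 19.96, 49.3 and 8.88 CPM in NAC-OE. In GUS-OE it was scarce and also uneven, at 1.18, 1.98 and 3.18 CPM. These were the members of highest spread among those that edgeR called higher in NAC-OE.

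Among members called lower in NAC-OE, Lj6g3v0815810.1 ranked highest, with 1195 bases on chromosome 6. Control nodules gave it 543, 529 and 507 CPM, while NAC-OE nodules gave it 12.3, 10.7 and 33.1 CPM. Its GUS-OE libraries differed little from each other, and NAC-OE replicate 3 retained 3.08 times the level of NAC-OE replicate 2. Lj0g3v0091689.1, of 1030 bases on unplaced sequence, behaved alike in NAC-OE, at 13.8, 12.4 and 34.1 CPM, from 112, 149 and 115 CPM in GUS-OE. The member ranked 33, of 845 bases on chromosome 2, had the largest drop of all members: its GUS-OE values were 996, 1075 and 886 CPM and its NAC-OE values 8.63, 8.76 and 20.2 CPM. Its GUS-OE mean was 78.6 times its NAC-OE mean, and NAC-OE replicate 3 was again the library nearest to the control.

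Among members not called in either direction the first was Lj0g3v0072599.1, of 667 bases on unplaced sequence. It had 7.51, 28.2 and 7.16 CPM in NAC-OE against 3.38, 7.68 and 6.84 CPM in GUS-OE. Lj0g3v0072589.1, of 497 bases, carries a neighbouring identifier and showed the same excess in NAC-OE replicate 2 alone, at 15.2, 57.1 and 17.0 CPM, with 10.6, 15.8 and 12.8 CPM in GUS-OE. In this pair NAC-OE replicate 2 stood far above every control library and the other NAC-OE libraries were near the control range.

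Lj2g3v0855230.1, of 4363 bases on chromosome 2, spanned the control range on both sides, with 9.34, 26.2 and 6.86 CPM in NAC-OE and 23.8, 10.5 and 16.3 CPM in GUS-OE. Lj6g3v2170750.1, of 1051 bases on chromosome 6, was highest in NAC-OE replicate 3, at 22.9, 14.4 and 52.0 CPM, beside 29.1, 17.6 and 16.9 CPM in GUS-OE. For these transcripts the NAC-OE mean hid libraries above and below the control mean.

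**Figure D2:**
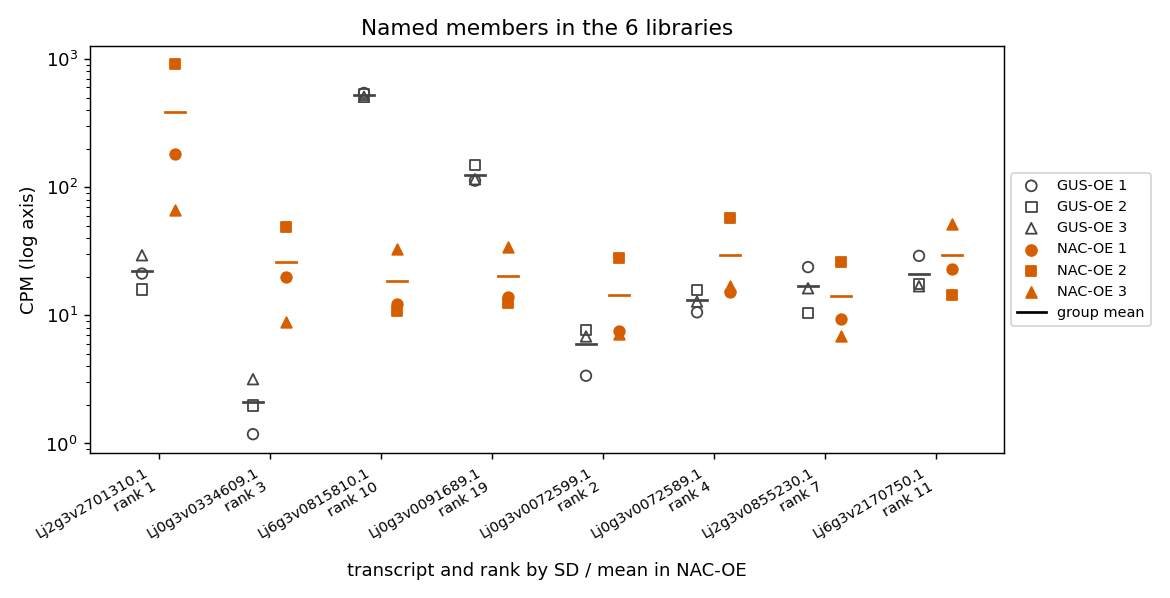
CPM on a log axis of the 8 named members (x axis, with their rank) in the 3 GUS-OE libraries (open grey) and the 3 NAC-OE libraries (filled orange), with a marker shape for each replicate and a bar for the group mean. The first pair was called higher in NAC-OE, the next pair lower and the last 4 were not called; the NAC-OE points of Lj2g3v2701310.1 run from 66.9 to 908 CPM.

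The same transcripts were more even in control nodules than in NAC-OE nodules. Their median relative spread in GUS-OE was 0.161, with quartiles of 0.0837 and 0.303, and it was smaller than the NAC-OE value in 95 of the 100. Of the eligible transcripts 61.6% had the larger spread in NAC-OE; for members the choice itself favours it. The NAC-OE spread was over 3 times the GUS-OE spread for 53 members and for 19.1% of the eligible transcripts, where the choice again favours members. A ratio of at least 2 between the highest and lowest GUS-OE library was seen for 16 members, or 16% of them, and for 4.94% of the eligible transcripts.

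Several members were nearly constant in GUS-OE, and 12 had a relative spread there under 0.05. Such even levels were not particular to members. The lower quartile of the GUS-OE spread was 0.0837 for members and 0.0614 for eligible transcripts. The member ranked 74, of 2641 bases on chromosome 1, was the most even of all, at 25.6, 25.6 and 24.96 CPM in GUS-OE and 58.1, 26.6 and 68.6 CPM in NAC-OE. The member ranked 36, of 4217 bases on chromosome 2, had 367, 363 and 385 CPM in GUS-OE and 902, 1532 and 538 CPM in NAC-OE. All its NAC-OE libraries lay above the control, and the highest held 2.85 times the level of the lowest. The member ranked 27, of 2149 bases on unplaced sequence, had 91.7, 83.8 and 86.2 CPM in GUS-OE and 81.4, 44.8 and 146 CPM in NAC-OE. Its group means were alike, and the NAC-OE libraries fell on both sides of the control.

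The members were nonetheless less even in control nodules than other transcripts were. The median GUS-OE spread of all eligible transcripts was 0.103, and 68 of the 100 members lay above it. Transcripts with few counts vary more, and members were scarcer in GUS-OE than eligible transcripts, with a median of the mean level of 17.2 CPM against 28.3 CPM. The comparison was therefore repeated within 4 classes of eligible transcripts of equal size by mean GUS-OE level. In the scarcest class, which held 45 members, their median GUS-OE spread was 0.242 and that of the others 0.163. In the next classes the medians were 0.145 against 0.104 for 22 members, 0.168 against 0.0859 for 12, and 0.123 against 0.0829 for 21 in the most abundant. Counting error alone would give a median relative spread of 0.0394 for the members in GUS-OE and 0.0326 in NAC-OE. For eligible transcripts it would give 0.0308 and 0.0295. In GUS-OE 7 members, or 7% of them, did not exceed their own counting error, and neither did 6.86% of the eligible transcripts. No test was made of these differences, since transcripts of the same libraries are not replicates.

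The members more uneven in GUS-OE than in NAC-OE were 5, those ranked 22, 62, 68, 71 and 89, singled out after their values were seen. The member ranked 62, of 1015 bases on chromosome 6, had 0.675, 2.03 and 8.11 CPM in GUS-OE and 20.01, 12.8 and 7.87 CPM in NAC-OE. The member ranked 89, of 1941 bases on unplaced sequence, had 1.60, 3.32 and 8.42 CPM in GUS-OE and 191, 244 and 99.2 CPM in NAC-OE. Both were highest in GUS-OE replicate 3 and lowest in NAC-OE replicate 3. Of the members 7 were among the 100 eligible transcripts of largest GUS-OE spread.

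**Figure D3:**
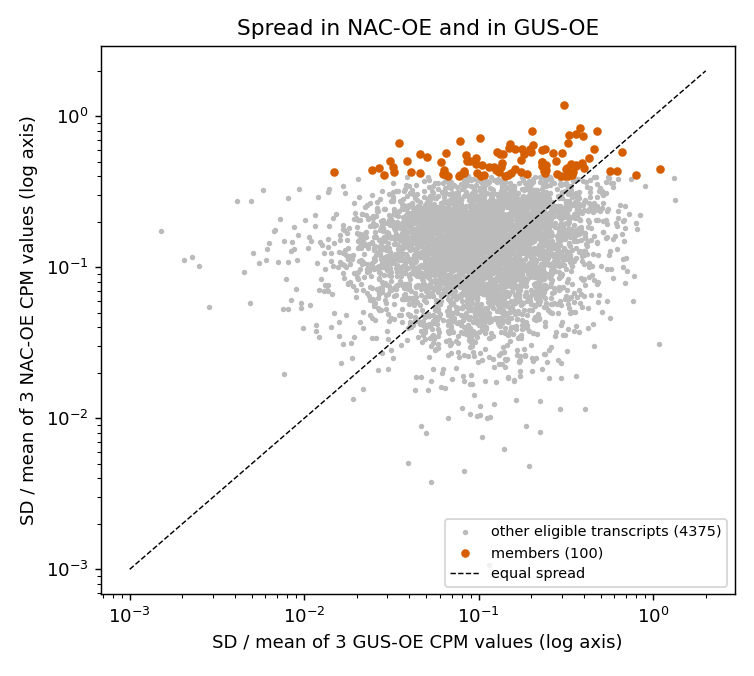
Relative spread (SD over mean of 3 CPM values) in GUS-OE (x axis) and NAC-OE (y axis), both log axes, for the 100 members (orange) and the 4375 other eligible transcripts (grey), with a dashed line at equal spread. Members lie above about 0.4 on the y axis, where the rule placed them, and run from 0.0148 to 1.10 on the x axis, where all eligible transcripts run from 0.00151 to 1.34; 95 members lie above the line.

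Against GUS-OE, members moved in both directions. All 3 NAC-OE values lay above all 3 GUS-OE values for 52 members and below them for 20, and the groups overlapped for 28. Over all 46346 transcripts tested the shares without overlap were 43.3% above and 25.3% below, and over the eligible transcripts 43.5% and 31.6%. These counts and shares used plain library sizes. With TMM or median-of-ratios scaling 47 members were above and 23 below. The shares of all or of eligible transcripts were not counted under those scalings. The shares given here are therefore no background for those member counts. By edgeR's quasi-likelihood test with Benjamini-Hochberg adjustment over all transcripts tested (adjusted p under 0.05), 52 members were called higher, 21 lower and 27 were not called. The background was 31.5% higher and 30.7% lower among all transcripts tested, and 31.2% and 40.4% among the eligible. NAC-OE values chose the members and enter this comparison too, so nothing is read from these counts. In bulk nodules, fewer cells of a type and less RNA per cell cannot be told apart.

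The library of highest level was counted within each direction, as a description of values that the rule had used. Of the 52 members with all NAC-OE values above GUS-OE, 37 were highest in NAC-OE replicate 2 and 14 in replicate 3. The shares of the 1946 eligible transcripts with that order of groups were 32.5% and 36.0%. Their NAC-OE mean was 5.64 times the GUS-OE mean in the median, and at most 44.4 times. Of the 20 members with all NAC-OE values below, 17 were highest in replicate 3 and 1 in replicate 2, where the shares of the 1412 eligible transcripts were 59.5% and 10.8%. Their GUS-OE mean was 5.06 times the NAC-OE mean in the median. Counted over all members, NAC-OE replicate 2 was the library farthest from the GUS-OE mean on the log2 scale for 75, replicate 3 for 22 and replicate 1 for 3. The corresponding shares of eligible transcripts were 47.8%, 30.4% and 21.8%.

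The 42 members highest in NAC-OE replicate 3 were not all of this kind. In 14 of them all NAC-OE values were above GUS-OE, so that replicate 3 was the farthest from the control. The member ranked 71, of 1735 bases on unplaced sequence, had 45.8, 38.7 and 83.8 CPM in NAC-OE and 2.17, 0.818 and 0.800 CPM in GUS-OE. The member ranked 17, of 796 bases on chromosome 3, had 10.6, 10.5 and 27.6 CPM in NAC-OE and 2.20, 3.27 and 2.87 CPM in GUS-OE. In both, replicates 1 and 2 were similar and replicate 3 stood above them.

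Taken as sums, the set of 54 held 0.560%, 1.05% and 0.366% of all counts in NAC-OE replicates 1, 2 and 3, and between 0.160% and 0.195% in the GUS-OE libraries. Without Lj2g3v2701310.1 the NAC-OE sums were 0.541%, 0.961% and 0.359%. The set of 42 held 0.132%, 0.0789% and 0.209% in NAC-OE and between 0.364% and 0.414% in GUS-OE. The members were thus a small share of each library. Each set was defined by the NAC-OE library in which its members were highest. That library's lead in the sums was therefore fixed in advance, also without the most uneven transcript.

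The place of the middle NAC-OE library was described in the same way. On the log2 scale the middle library lay near the midpoint of the lowest and highest for 51 members, near the lowest for 33 and near the highest for 16, with the range cut into 3 equal parts. Among eligible transcripts the shares were 38.2%, 26.9% and 34.9%. The 54 members highest in replicate 2 had a median GUS-OE spread of 0.176, and the 42 highest in replicate 3 one of 0.139. The 54 were also scarcer in GUS-OE, with a median of the mean level of 12.3 CPM against 25.5 CPM. These spreads were not compared at like levels.

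Replicates 2 and 3 were also the pair of NAC-OE libraries farthest apart over the other transcripts. Over the 4375 eligible transcripts that are no members, the SD of the log2 ratio of replicates 2 and 3 was 0.42, against 0.29 for replicates 1 and 2 and 0.29 for replicates 1 and 3. In GUS-OE the SDs were 0.42 for replicates 1 and 2, 0.33 for 1 and 3 and 0.33 for 2 and 3. By SD the most distant pairs of both groups were thus alike outside the list. Leaving out the members removed the transcripts of largest NAC-OE spread and none by their GUS-OE spread. The rule itself therefore bears on this likeness, and nothing is read from it. By the interquartile range over all eligible transcripts the same pairs differed, at 0.59 for NAC-OE replicates 2 and 3 and 0.44 for GUS-OE replicates 1 and 2. The median absolute log2 ratio outside the list was 0.32 for the former pair and 0.21 for the latter. This measure was not centred, so a shift of a whole library enters it. Over the eligible transcripts the median log2 ratio was -0.17 for the former pair and 0.01 for the latter, with plain library sizes. In the members the median absolute log2 ratio was 1.37 for NAC-OE replicates 2 and 3 and at most 0.27 for any GUS-OE pair. The choice of members by NAC-OE spread itself favours this contrast, so nothing is read from it.

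The contrast of replicates 2 and 3 was set beside the level in NAC-OE replicate 1 relative to the control. All 3 NAC-OE libraries entered the ranking, and a list of extreme ratios widens their range, so the values of members are a description. Over the eligible transcripts the median log2 ratio of replicate 2 to replicate 3 was -0.17 with plain library sizes, so sides were taken relative to the eligible median, since a scaling factor of either library shifts transcripts and median alike. Of the 55 members on the replicate 2 side, 47 had a ratio of NAC-OE replicate 1 to the GUS-OE mean above the eligible median, with a median log2 ratio of 1.97. On the replicate 3 side this held for 19 of 45, with a median of -0.10. Outside the list the shares were 61.6% and 37.7%. The Pearson correlation across transcripts of the 2-to-3 log2 ratio with the ratio of replicate 1 to the GUS-OE mean was 0.50 over the 100 members and 0.31 over the 4375 others. These correlations describe transcripts that share libraries, base composition and depth, and transcripts are not independent replicates.

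The same contrast was set beside the control libraries, whose spread was not used to rank. The log2 ratio of GUS-OE replicate 3 to GUS-OE replicate 1 lay above the eligible median for 37 of the 55 members on the NAC-OE replicate 2 side and for 15 of the 45 on the replicate 3 side. The same shares outside the list were 60.5% and 39.4%. The correlation of the NAC-OE 2-to-3 log2 ratio with this ratio was 0.28 over members and 0.25 over the others. With the ratio of GUS-OE replicate 2 to replicate 1 it was 0.05 over members and 0.22 over the others, and with that of GUS-OE replicate 2 to replicate 3 it was -0.27 and 0.04. These values were weak, and they differed between the GUS-OE pairs and between members and others. No batch, harvest day or lane is given in the labels, and what these libraries shared was not tested.

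**Figure D4:**
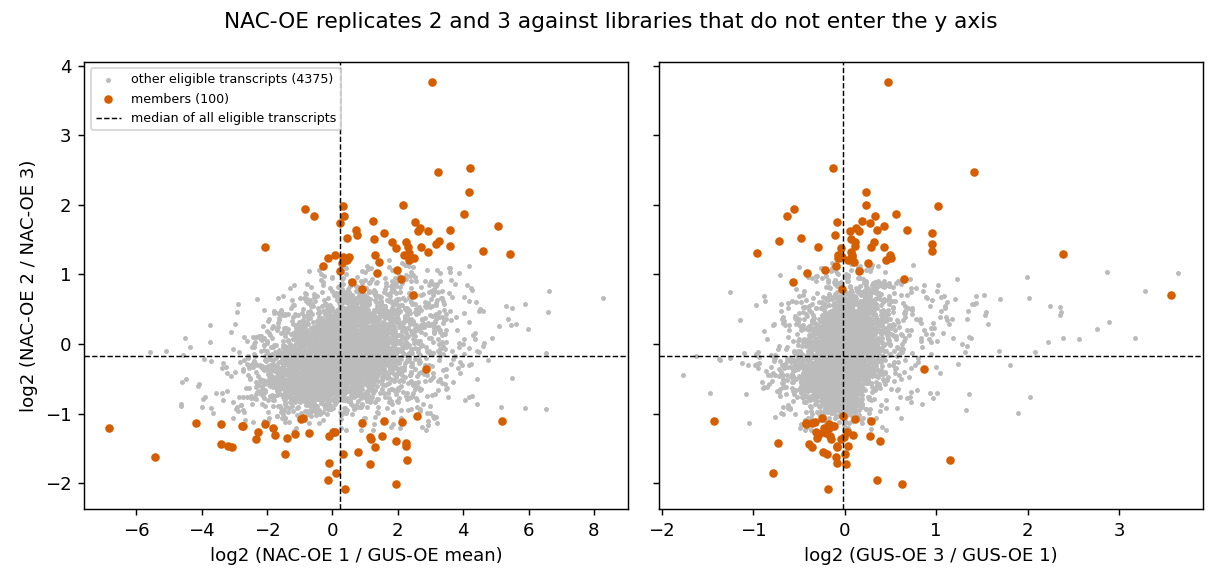
Log2 ratio of NAC-OE replicate 2 to replicate 3 (y axis) against the log2 ratio of NAC-OE replicate 1 to the GUS-OE mean (left x axis) and against that of GUS-OE replicate 3 to replicate 1 (right x axis), for 100 members (orange) and 4375 other eligible transcripts (grey), with dashed lines at the medians of all eligible transcripts. Members form an upper and a lower band, and on the left 47 of 55 in the upper group lie to the right of the vertical line, against 19 of 45 in the lower.

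Position and length, which the rule had not used, were set beside those of eligible transcripts. The members came from 100 different loci. By identifier 30 were on unplaced sequence, where 24.8% of eligible transcripts lie, and the numbers on chromosomes 1 to 6 were 12, 14, 13, 14, 8 and 9. Chromosome 1 had 12.0% of the members and 18.4% of the eligible transcripts. Their lengths, derived from count and FPKM, had a median of 1671 bases and a range of 109 to 4363, against a median of 1598 for eligible transcripts. With eligible transcripts split into 4 classes by length, the share that were members was 2.14%, 2.06%, 2.42% and 2.32% from shortest to longest. Per length, members ranged from 3.22 to 246 FPKM in the NAC-OE means, with a median of 19.4, and from 0.590 to 1165 FPKM in the GUS-OE means, with a median of 10.02.

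Loci with neighbouring identifiers gave few further pairs. Among eligible transcripts, 1622 adjacent pairs had identifiers at most 100 apart in number, and 59 pairs included a member. Both identifiers were of the same chromosome or both of unplaced sequence. On unplaced sequence, close numbers do not show that loci are neighbours. In 3 pairs both were members: those ranked 4 and 2, on unplaced sequence, those ranked 41 and 75, and those ranked 21 and 96. Each of these pairs was highest in the same NAC-OE library. In the 56 pairs with 1 member the neighbour lay on the same side of the eligible median of the 2-to-3 ratio in 31, or 55.4%, near the 52.3% of the 1563 pairs with no member. A second transcript of the same locus was in the table for only 1 member, the one ranked 39. That second transcript had 5.87, 7.15 and 3.95 CPM in NAC-OE, in the same order of libraries as the member, whose values were 10.8, 18.5 and 6.61 CPM.

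The scaling of the libraries bears on which transcripts enter the list. With CPM based on TMM-scaled library sizes, 70 of the first 100 transcripts were the same, and 82 of that list were highest in NAC-OE replicate 2 and 17 in replicate 3. For the 100 members reported here TMM scaling left the split at 54 and 42. Of the eligible transcripts 36.2% were then highest in replicate 2 and 37.8% in replicate 3. The list also turned on single libraries: ranked without NAC-OE replicate 2, 40 of the first 100 were the same, without replicate 3, 50, and without replicate 1, 82.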

How the data were processed

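The authors deposited 1 table with a count and an FPKM per transcript and library. The deposited counts are estimated counts, part of them fractional, and members needed whole counts (within 1e-09) in every library. The FPKM values deposited by the authors served to derive lengths and to compare levels between transcripts. The submitters' processing notes name fastp 0.22.0, HISAT2 and featureCounts; settings, genome build, annotation and strand use are not stated there, so antisense neighbours cannot be told apart.

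CPM used plain library sums, and logs of ratios were of CPM + 0.01. The groups were compared on counts rounded to whole numbers with edgeR 4.0.16 (R 4.3.3; quasi-likelihood, robust, TMM, filterByExpr with minimum count 10, group alone) over all transcripts. Alternatives used DESeq2 1.42.0 and limma 3.58.1. P-values set the difference between the groups against the spread between these libraries, which may be technical. They do not test that spread. Named by rule were the 2 members of largest spread called higher, the 2 called lower and the 4 not called. Members and lists were chosen with earlier results of these data known. Planned gene lists were not used, since no identifier was paired with a name. Intervals from counts cover counting error only.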

Additional observations from a re-analysis of the deposited data

How the results depend on the processing

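Each alternative gave a new list by the same rule with 1 choice changed. The first 100 shared 70% with the reported members under TMM scaling and 71% under median-of-ratios scaling, 84% with the SD of log2(CPM + 1), 61% with a mean GUS-OE CPM of at least 10, 34% with a mean NAC-OE CPM of at least 50 and 29% with fractional counts included, where 71 of the 100 had fractional counts. Of the first 200, 50% were reported members, by construction. Leaving out 1 NAC-OE library gave 40% to 82%. The share highest in NAC-OE replicate 2 moved from 54% to 82% with TMM and 81% with median-of-ratios scaling. For replicate 3 it moved from 42% to 17% (TMM), 18% (median-of-ratios) and 25% (fractional counts), and for replicate 1 from 4% to 1%, 1% and 2%, and to 0% for the first 50. With a mean GUS-OE CPM of at least 10, replicate 3 led, at 53% against 42% for replicate 2. It also led in the first 200, at 50.5% against 43.5%. In the other lists for which these shares were counted, replicate 2 led. The eligible median log2 ratio of replicates 2 and 3, -0.17 with plain sizes, was 0.01 with TMM. The cause of the moves between lists was not tested. Replicate 1 in the middle (89% to 96%) and replicate 2 farthest from the GUS-OE mean (68% to 86%) were measures chosen after seeing the data. A GUS-OE spread above the eligible median was found for 63% to 80% of each list, and for 56% to 67% without 1 GUS-OE library. Larger spread in NAC-OE held for 88% to 99%. Calls among members were 48 to 55 higher and 20 to 24 lower over all alternatives, and none of the 73 called members changed sign; over all transcripts the counts of calls stayed within 1.5 times those reported. With the replicate block they were 49 and 22. Deviations of same-numbered libraries correlated at -0.02, 0.08 and -0.02, so the numbers were not taken to pair the libraries. Depth limits the GUS-OE spread of scarce members, for which counting error alone reached 0.162.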
